A study of Mus musculus with 9 samples.

Results

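Rab GTPases are small membrane-bound switches of vesicle traffic, and their transcript levels were compared in skeletal muscle of Gaa knock-out and wild-type mice. The members were all genes of the deposited table whose symbol is Rab followed by a number and at most one letter from a to d, with the transcripts of a gene summed. There were 55 such genes among 18061 gene symbols, and effectors and Rab-like genes were left out. The tissue was white gastrocnemius, calf muscle of mostly fast fibres. The Gaa knock-out group had 5 libraries from mice at 5 months of age that carry a targeted disruption of exon 6 of Gaa, with LoxP sites in introns 5 and 6. The wild-type group had 4 libraries, 2 from mice at 5 months and 2 from mice at 6 months. All are labelled as of mixed background (BL6/129j), and the labels describe the colony as inbred by brother-sister matings for more than 20 generations. The wild-type value columns, here wt1 to wt4, show the genotype and no age, so they formed 1 group, and the 6-month wild-type libraries cannot be told apart from the 5-month ones. The labels do not say which animals the libraries came from, so every p-value measures the spread between these libraries, which may be technical in part.

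A Rab protein cycles between an inactive state bound to GDP, held in the cytosol by a GDP dissociation inhibitor (GDI), and an active state bound to GTP on a membrane. Guanine nucleotide exchange factors (GEFs) switch it on, GTPase-activating proteins (GAPs) switch it off, and the active form recruits effectors such as tethers, adaptors and motors, so that each Rab marks a stretch of the route between the endoplasmic reticulum, Golgi, endosomes, lysosomes and plasma membrane. Acid alpha-glucosidase, the product of Gaa, breaks down glycogen in the lysosome, and its loss in Pompe disease leaves muscle fibres with enlarged, glycogen-filled lysosomes and autophagic debris.

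Values were RPKM, that is, reads scaled for the length of the transcript and the depth of the library, as deposited. The targeted gene parted the genotypes: Gaa had 3.64, 3.40, 3.11, 3.51 and 3.55 RPKM in knock-out libraries, against 56.0, 47.3, 48.2 and 46.0 RPKM in wild-type libraries. The mean in knock-out libraries came to 6.97% of that in wild-type libraries (log2 fold change -3.80, SE 0.07, limma adjusted p = 1.8e-11, exact two-sided permutation p = 0.0079, the smallest that 126 splits can give). By the step of a single read, 1 RPKM over 1 kilobase stood for 17.6 to 37.6 reads in knock-out libraries and 37.2 to 64.3 reads in wild-type libraries, so the knock-out libraries were mostly shallower. Fast muscle markers were abundant, as the tissue label has it, with a summed level of 105771 to 121100 RPKM in knock-out and 99851 to 107411 RPKM in wild-type libraries. Of these 10 markers 2 were called higher (20%) and none lower. Of 19 tested macrophage markers 16 were higher in knock-out muscle (84.2%, against 37% of all tested genes) and 3 were not called. The listed markers summed to 91.4 to 156 RPKM in knock-out libraries, against 39.9 to 51.9 RPKM in the wild type. Mpeg1, Trem2, Emr1, Cd53 and Ms4a7 averaged 0.194 to 0.382 RPKM in the wild type. They passed the filter, a mean of 0.5 RPKM over all libraries, through their knock-out values, so the count leans towards higher. Of 14 endothelial markers 9 were lower (64.3%, 36.8 to 64.5 RPKM in knock-out, 52.2 to 83.7 RPKM in wild type). Of 9 adipocyte markers 4 were lower (44.4%, 190 to 302 against 201 to 334 RPKM). Of 10 fibroblast markers 4 were higher and 1 lower (295 to 393 against 193 to 284 RPKM). These fibroblast shares, 40% and 10%, were near those of all tested genes, 37% higher and 14.8% lower. With each library centred on its median log2 value, 16 macrophage markers were higher and 11 endothelial and 7 adipocyte markers lower. Fibroblast markers were then 4 higher and 2 lower, against 25.1% and 25% of all tested genes. Schwann cell and nerve markers summed to 23.0 to 53.8 RPKM in knock-out and 21.4 to 55.1 RPKM in wild-type libraries, and none of the 6 tested was called. None of the listed markers in the table was at 0 in every library. In such bulk samples a change in the number of cells of a type and a change in RNA per cell cannot be told apart, and the part of these other cell types in the Rab values below was not tested.

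Of the 55 Rab genes, 39 had a mean of at least 0.5 RPKM over the 9 libraries and were tested, and 16 lay under that filter. In the knock-out 14 of the 39 were higher, 5 were lower and 20 did not pass the threshold (limma on log2(RPKM + 0.1), Benjamini-Hochberg adjusted p below 0.05 over all 11032 genes tested). The share called higher, 35.9%, was near that of all tested genes, 37%, and the share called lower, 12.8%, was near the background of 14.8%. In either direction 48.7% of the Rab genes were called, against 51.8% of all genes. All knock-out libraries lay above all wild-type libraries for 12 of the 39 (30.8%, background 30.9%) and below them for 3 (7.69%, background 11.4%). The Rab genes as a group therefore moved about as often as other genes, with a median log2 fold change of 0.15 against 0.12 for all genes tested. A change of at least 2-fold was called for 3 of them, Rab13 and Rab40b upward (background 4.8%) and Rab6b downward (background 1.42%). Leaving out wt3 left 3 Rab genes lower in place of 5, and 1434 of all tested genes in place of 1632.

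**Figure D1:**
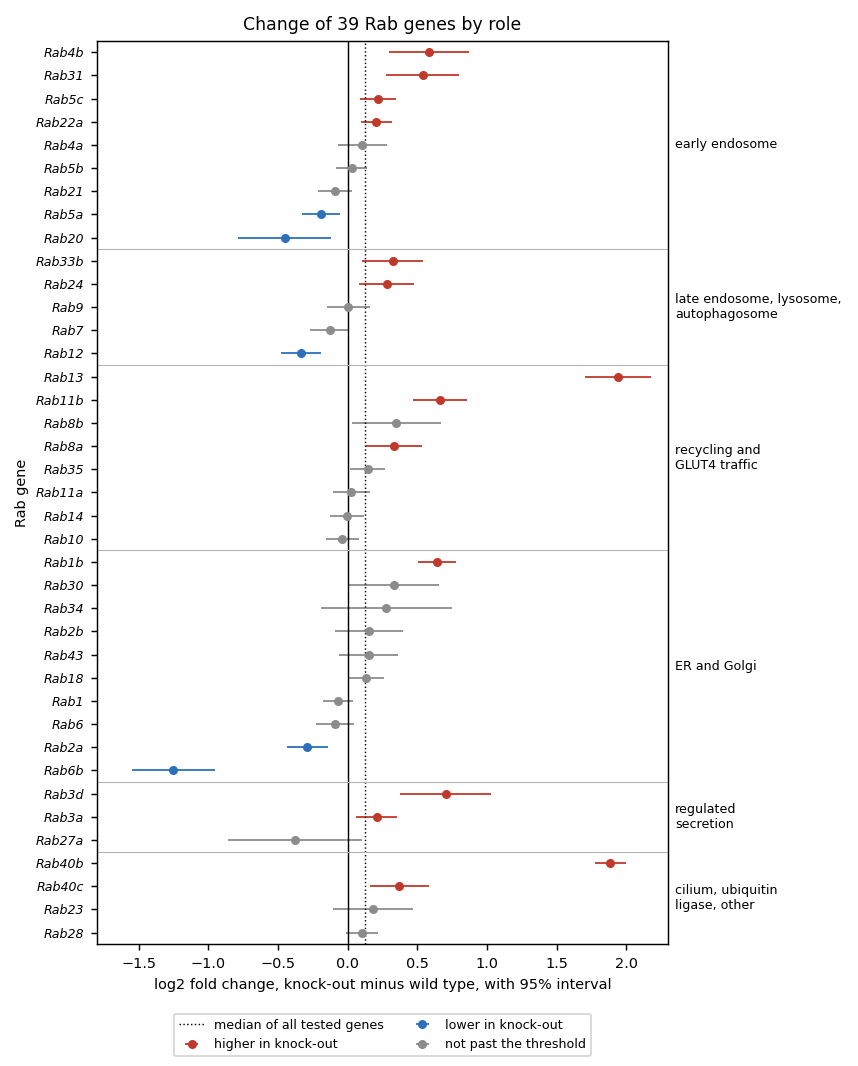
Log2 fold change, knock-out minus wild type, of the 39 tested Rab genes grouped by role, with 95% limma intervals. The solid line marks 0 and the dotted line the median of all tested genes (0.12). Rab13 and Rab40b stand near 1.9 and Rab6b near -1.25, while the other points lie between -0.45 and 0.70.

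The split between higher and lower depended on how libraries were scaled. RPKM totals were 349239 to 374056 in knock-out and 315337 to 327517 in wild-type libraries, and the median gene was higher by 0.12 on the log2 scale in the knock-out. With each library centred on its median log2 value, 7 Rab genes were higher and 10 lower, against a background of 25.1% higher and 25% lower. Calls are therefore given below with this second scale in mind. Rab11b, Rab13, Rab1b, Rab31, Rab3d, Rab40b and Rab4b were called higher under all 5 scalings tried (as deposited, centred, quantile-normalised, and with the trend with transcript length or with GC content removed). Rab12, Rab20, Rab2a, Rab5a and Rab6b were called lower under all 5. Rab22a, Rab24, Rab33b, Rab3a, Rab40c, Rab5c and Rab8a were no longer called on centred values, and Rab1, Rab10, Rab21, Rab6 and Rab7 were then called lower.

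Transcript length and GC content differed between called and uncalled genes, in ways that were not the same in the Rab genes and in the whole table. The 14 Rab genes called higher had a median transcript length of 2190.5 bases and a median GC content of 53.1%, the 5 called lower 2133 bases and 48.4%, and the 20 not called 3030 bases and 45.5%. Over all tested genes the medians were 2351.5 bases and 52.4% for genes called higher, 3518 bases and 48.4% for genes called lower, and 3095 bases and 49.6% for the rest.

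In fast muscle the Rab family is led by a few genes. The summed level of all 55 was 733 ± 9.04 RPKM in the knock-out (SD, n = 5) and 696 ± 9.32 RPKM in the wild type (SD, n = 4), with knock-out libraries at 717 to 740 RPKM and wild-type libraries at 686 to 709 RPKM. Taken as a share of each library's total, the order turned and the groups met: 0.192% to 0.211% in knock-out libraries against 0.210% to 0.220% in wild-type libraries. Rab10, Rab12, Rab7, Rab2a and Rab1b were the 5 most abundant members and held 46.0% to 47.7% of the Rab sum in knock-out libraries, against 50.01% to 53.3% in wild-type libraries. The groups did not overlap in that share. Among tested members the mean level ran from 0.562 RPKM for Rab27a to 88.5 RPKM for Rab10, with 22 members over 10 RPKM. The median coefficient of variation between libraries was 7.68% in knock-out and 8.58% in wild-type libraries.

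The largest log2 fold change among tested members on the deposited scale was that of Rab13, a Rab of tight junctions and of the insulin-driven delivery of the glucose transporter GLUT4 in cultured muscle cells. Rab13 had 16.7, 18.6, 17.7, 15.3 and 15.9 RPKM in knock-out libraries, against 5.46, 3.60, 4.45 and 3.91 RPKM in wild-type libraries. The lowest knock-out library was well above the highest wild-type one, wt1. The log2 fold change was 1.94 (3.84-fold, SE 0.11, limma adjusted p = 7.5e-08), the 126th largest rise among the tested genes. Rab40b, which carries a SOCS box and serves as the substrate adaptor of a cullin-5 ubiquitin ligase, had 28.6, 27.5, 28.5, 29.2 and 28.5 RPKM in knock-out libraries, against 7.38, 7.20, 8.15 and 7.81 RPKM in wild-type libraries. The libraries of each genotype were close together and the genotypes far apart, with a log2 fold change of 1.89 (3.69-fold, SE 0.05, adjusted p = 3.9e-10). Rab40b was level with or above Rab13 on log2(RPKM + 1) (1.77 against 1.75) and with the length trend removed (1.70 against 1.69). The same held with the GC trend removed (1.77 for each) and without wt3 and wt4 (1.95 against 1.90). Rab6b, the Rab6 form best known from neurons and active in traffic from Golgi to endoplasmic reticulum, went the other way. It had 0.788, 0.832, 0.607, 0.526 and 0.592 RPKM in knock-out libraries, against 1.84, 1.63, 1.85 and 1.54 RPKM in wild-type libraries. Every knock-out library lay below every wild-type library, and the log2 fold change was -1.25 (2.38-fold lower, SE 0.14, adjusted p = 1.8e-05). These levels stood on about 150.5 to 737.6 reads per library for Rab13, 506.4 to 2040.7 for Rab40b and 53.6 to 595.1 for Rab6b. None of the 3 shares a 50-base stretch of its transcript with another gene in the annotation used here.

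The promoter windows of these genes are shown because they hold the largest changes among the tested members. Each runs from 250 bases before to 50 bases after a RefSeq transcript start, in GRCm38.p6, which is not the build of the expression values. Rab13 has 2 annotated starts, at chr3:90213465-90213764 and chr3:90220534-90220833 (plus strand), Rab40b has a window at chr11:121388202-121388501 (minus strand) and Rab6b at chr9:103111824-103112123 (plus strand). Capitals mark CAGCTG, an E-box of the kind bound by myogenic factors. The Rab40b match begins 4 bases before the end of the upstream bases and the Rab6b match 72 bases before it.
Rab13, first start: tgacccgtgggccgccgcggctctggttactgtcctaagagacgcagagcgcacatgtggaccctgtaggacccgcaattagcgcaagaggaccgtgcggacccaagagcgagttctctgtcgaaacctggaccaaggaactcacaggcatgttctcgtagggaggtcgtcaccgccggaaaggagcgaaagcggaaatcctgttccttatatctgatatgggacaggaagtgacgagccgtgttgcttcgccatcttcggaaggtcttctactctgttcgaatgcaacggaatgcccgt
Rab13, second start: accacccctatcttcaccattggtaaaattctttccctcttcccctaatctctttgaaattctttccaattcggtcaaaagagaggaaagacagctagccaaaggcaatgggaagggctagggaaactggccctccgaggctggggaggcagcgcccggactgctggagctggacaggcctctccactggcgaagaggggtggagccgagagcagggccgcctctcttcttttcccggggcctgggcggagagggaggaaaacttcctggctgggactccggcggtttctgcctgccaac
Rab40b: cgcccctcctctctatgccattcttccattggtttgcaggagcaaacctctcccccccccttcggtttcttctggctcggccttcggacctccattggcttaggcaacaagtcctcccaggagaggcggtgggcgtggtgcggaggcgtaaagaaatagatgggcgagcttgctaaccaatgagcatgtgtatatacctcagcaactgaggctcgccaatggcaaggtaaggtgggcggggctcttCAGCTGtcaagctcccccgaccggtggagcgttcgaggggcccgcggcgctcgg
Rab6b: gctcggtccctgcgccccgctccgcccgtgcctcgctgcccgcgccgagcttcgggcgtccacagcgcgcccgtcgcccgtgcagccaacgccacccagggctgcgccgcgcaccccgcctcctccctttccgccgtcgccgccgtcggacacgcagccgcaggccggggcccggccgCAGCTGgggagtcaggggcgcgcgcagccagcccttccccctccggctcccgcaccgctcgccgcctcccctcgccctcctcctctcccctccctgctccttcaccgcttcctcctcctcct
Neither Rab13 window held CAGCTG, the E-box CACGTG or the TATA motif TATAAA. Of 57 windows of 45 matched Rab genes, 13 held CAGCTG (22.8%), against 16.3% of 32851 mouse windows of the same length, and 3 held TATAAA on either strand (5.26% against 13.6%).

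**Figure D2:**
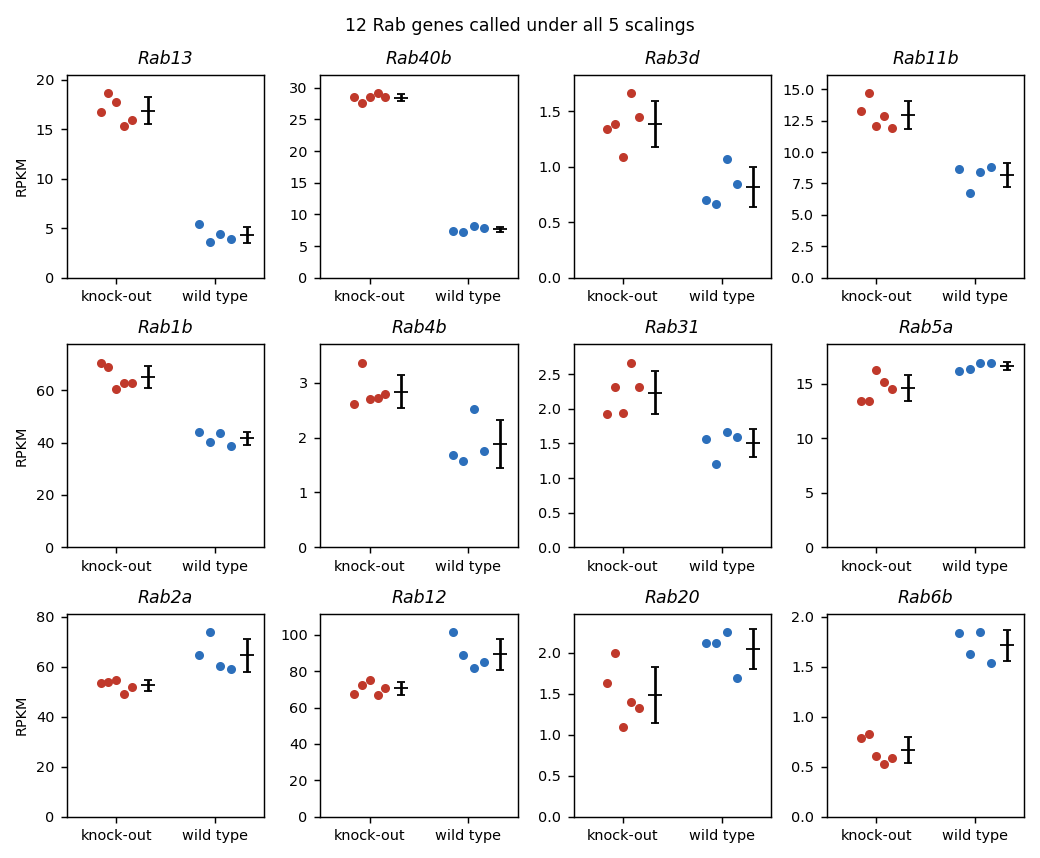
RPKM in each library for the 12 Rab genes called under all 5 scalings, knock-out left and wild type right. Points are libraries and bars the mean ± SD (n = 5 knock-out, n = 4 wild type). Rab13, Rab40b and Rab6b show a wide gap between the genotypes, whereas Rab5a and Rab20 overlap.

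Of 10 Rabs of the early endosome, where incoming cargo is sorted, 9 were tested, 4 were higher, 2 lower and 3 not called. On centred values 2 were higher and 3 lower. Here and for the other roles, deposited-scale counts are to be read against 37% of all tested genes called higher and 14.8% called lower. Centred counts are to be read against 25.1% higher and 25% lower. Rab5a, Rab5b and Rab5c are the 3 forms of the Rab that drives fusion of early endosomes. Rab5a had 13.4, 13.5, 16.2, 15.2 and 14.5 RPKM in knock-out libraries, against 16.2, 16.4, 16.9 and 16.9 RPKM in wild-type libraries. Only ko3 reached the wild-type range, and the log2 fold change was -0.19 (SE 0.06, adjusted p = 0.025). That call was lost without ko1, ko2, wt3 or wt4 (adjusted p = 0.056, 0.052, 0.058 and 0.058). It was also lost without wt1 and wt2 together and without wt3 and wt4 together. Rab5c was higher, at 15.5 ± 0.979 RPKM in the knock-out (n = 5) and 13.3 ± 0.527 RPKM in the wild type (n = 4), with no overlap (log2 fold change 0.22, adjusted p = 0.0082). It was called under 1 of the 5 scalings, and under the other 4 its change was 0.028 to 0.094. Rab5b averaged 33.1 ± 1.79 RPKM in the knock-out and 32.5 ± 0.238 RPKM in the wild type and did not pass the threshold (0.028, 95% interval -0.08 to 0.14).

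Rab4b, a form of the Rab for fast recycling from early endosomes, had 2.61, 3.37, 2.70, 2.72 and 2.79 RPKM in knock-out libraries, against 1.67, 1.58, 2.52 and 1.76 RPKM in wild-type libraries. The groups did not overlap, although wt3 came close to the knock-out libraries (log2 fold change 0.58, SE 0.13, adjusted p = 0.0028). In the annotation 85.2% of the Rab4b exon bases are also covered by the same-strand locus Gm21983, so reads of the 2 cannot be told apart. Rab31, which carries cargo between the trans-Golgi network and endosomes, had 1.92, 2.31, 1.94, 2.67 and 2.31 RPKM in knock-out libraries, against 1.56, 1.21, 1.66 and 1.6 RPKM in wild-type libraries. All knock-out libraries were above all wild-type libraries (0.54, SE 0.12, adjusted p = 0.0029). Rab22a, of early endosomal recycling, was higher by 0.21 (16.2 ± 0.655 RPKM in the knock-out and 14.1 ± 0.470 RPKM in the wild type, adjusted p = 0.0052).

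Rab20, linked to the maturation of phagosomes and endosomes in macrophages, had 1.62, 2.0, 1.09, 1.39 and 1.32 RPKM in knock-out libraries, against 2.12, 2.12, 2.25 and 1.68 RPKM in wild-type libraries. The groups overlapped because wt4 lay below ko2, and the log2 fold change was -0.45 (SE 0.15, adjusted p = 0.026). The call did not hold in 6 of the 9 fits that left out a library (without ko3, ko4, ko5, wt1, wt2 or wt3, adjusted p = 0.053, 0.0502, 0.058, 0.060, 0.059 and 0.066). It was also lost without wt1 and wt2 together. The summed macrophage markers were higher in all knock-out libraries, and their part in the Rab20 values was not tested. Of the Rab20 exon bases, 25.6% are shared with E230013L22Rik. Rab4a and Rab21 differed by 0.10 and -0.089 on the log2 scale and were not called (adjusted p = 0.30 and 0.20). On centred values Rab21 was called lower (-0.22).

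Late endosomes, lysosomes and autophagosomes are the compartments in which glycogen collects in Pompe disease. Of 7 Rab genes assigned to them 5 were tested, 2 were higher, 1 lower and 2 not called, and on centred values Rab7 and Rab12 were called, both lower. Their summed level was 162 ± 5.56 RPKM in the knock-out (n = 5) and 184 ± 13.1 RPKM in the wild type (n = 4), carried by Rab7 and Rab12. Rab7, the main Rab of late endosomes and lysosomes, which governs their fusion and their movement on microtubules, had 63.8, 70.9, 63.4, 67.6 and 76.0 RPKM in knock-out libraries, against 80.9, 73.5, 71.8 and 72.3 RPKM in wild-type libraries. The highest knock-out library, ko5, exceeded 3 of the 4 wild-type libraries. The difference did not pass the threshold as deposited (-0.13, 95% interval -0.27 to 0.01, adjusted p = 0.11), did so without ko5 (-0.17, adjusted p = 0.041), and was called lower under the other 4 scalings (-0.34 to -0.23). Of the 50-base stretches of its transcript, 16.2% are shared with Rab7-ps1 and Gm5577.

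Rab12, a Rab of recycling endosomes, lysosomes and autophagy and a substrate of the kinase LRRK2, had 67.4, 72.5, 75.4, 66.7 and 70.9 RPKM in knock-out libraries, against 101, 88.9, 81.8 and 84.8 RPKM in wild-type libraries. All knock-out libraries lay below all wild-type ones, with wt1 the highest (-0.33, 1.26-fold lower, SE 0.07, adjusted p = 0.0015). Rab24, found on autophagosomes, had 13.7, 15.1, 12.5, 14.7 and 12.3 RPKM in knock-out libraries, against 11.7, 12.3, 11.7 and 9.34 RPKM in wild-type libraries. The groups were separate by a narrow margin between ko5 and wt2 (0.28, SE 0.09, adjusted p = 0.022), and the call was lost without ko2, ko4 or wt4 (0.24, 0.25 and 0.19, adjusted p = 0.0503, 0.0501 and 0.062) and with centred values. On the opposite strand, Prelid1 overlaps 66.4% of the Rab24 exon bases and was higher in the knock-out too (8.57 against 5.04 RPKM, log2 fold change 0.76, adjusted p = 1.1e-05). How strand was handled is not given in the sources used here, and without it reads of the 2 genes cannot be told apart.

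Rab33b, which acts at the Golgi and binds the autophagy protein ATG16L1, had 2.01, 2.10, 2.01, 2.31 and 1.93 RPKM in knock-out libraries, against 1.41, 1.49, 1.88 and 1.80 RPKM in wild-type libraries. The groups did not overlap, but the call of 0.32 (adjusted p = 0.019) was lost without wt1 or wt2 (adjusted p = 0.062 and 0.056). On the opposite strand, Gm38160 overlaps 17.6% of the Rab33b exon bases. Of the Rab33b 50-base stretches, 20.8% are shared with Gm38160 and H2-T23. H2-T23 was higher in the knock-out (0.45, limma adjusted p = 0.0042), and the part of these loci in the Rab33b values was not tested. Rab9, of transport from late endosomes to the trans-Golgi network, averaged 7.29 ± 0.615 RPKM in the knock-out and 7.24 ± 0.299 RPKM in the wild type (0.0057, 95% interval -0.15 to 0.16).

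The palindrome TCACGTGA is a form of the motif through which the TFEB family of transcription factors binds promoters of lysosomal genes, and it contains the E-box CACGTG. It was found in the windows of Rab24, Rab5a and Rab21. These are printed because they set the motif beside 3 different outcomes on the deposited scale. There Rab24 was called higher, Rab5a lower and Rab21 in neither direction. On centred values Rab24 was not called (0.15), and Rab5a and Rab21 were both called lower (-0.32 and -0.22). The windows lie at chr13:55321931-55322230 (minus strand), chr17:53478984-53479283 (plus strand) and chr10:115315542-115315841 (minus strand) of GRCm38.p6. Capitals mark the palindrome, which begins 1 base into the 50 downstream bases in Rab24 and, within the upstream bases, 96 bases before their end in Rab5a and 31 in Rab21.
Rab24: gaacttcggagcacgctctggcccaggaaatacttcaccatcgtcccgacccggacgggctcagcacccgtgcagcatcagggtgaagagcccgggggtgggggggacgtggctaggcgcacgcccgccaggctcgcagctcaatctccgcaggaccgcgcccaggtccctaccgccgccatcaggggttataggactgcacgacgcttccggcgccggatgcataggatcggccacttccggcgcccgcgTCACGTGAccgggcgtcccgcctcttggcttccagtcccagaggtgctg
Rab5a: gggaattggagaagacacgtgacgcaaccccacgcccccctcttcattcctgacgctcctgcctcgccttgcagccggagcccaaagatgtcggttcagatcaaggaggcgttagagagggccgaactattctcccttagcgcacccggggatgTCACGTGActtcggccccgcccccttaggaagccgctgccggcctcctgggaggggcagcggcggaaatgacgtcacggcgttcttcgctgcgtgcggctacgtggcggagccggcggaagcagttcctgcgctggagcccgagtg
Rab21: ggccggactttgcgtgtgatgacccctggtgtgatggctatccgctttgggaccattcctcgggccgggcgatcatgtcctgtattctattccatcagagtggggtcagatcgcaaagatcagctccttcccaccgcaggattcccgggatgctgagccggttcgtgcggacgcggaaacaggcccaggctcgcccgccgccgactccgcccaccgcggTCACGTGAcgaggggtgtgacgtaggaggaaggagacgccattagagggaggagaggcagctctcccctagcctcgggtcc
Among all windows 0.974% held the palindrome, or 320 of 32851, against 3 of 57 Rab windows (5.26%). The shorter CACGTG was in 6 Rab windows (10.5%), those of Rab20, Rab21, Rab23, Rab24, Rab27a and Rab5a, and in 7.15% of all. Of these 6 genes, on the deposited scale, Rab24 was called higher, Rab20 and Rab5a lower, and Rab21, Rab23 and Rab27a were not called. On centred values Rab20, Rab5a and Rab21 were lower and the others were not called. Binding was not measured.

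Recycling endosomes and the insulin-driven traffic of GLUT4 matter in muscle because they bring the glucose transporter to the surface. Of 10 such Rab genes 8 were tested, 3 were higher and 5 not called, and on centred values 2 were higher and 1 lower. Their summed level was 176 ± 4.33 RPKM in the knock-out (n = 5) and 159 ± 6.19 RPKM in the wild type (n = 4). Rab13 led them, as given above. Rab11b, a form of the main Rab of slow recycling, had 13.3, 14.7, 12.1, 12.9 and 11.9 RPKM in knock-out libraries, against 8.67, 6.78, 8.43 and 8.81 RPKM in wild-type libraries. The groups were well apart (0.66, 1.58-fold, SE 0.09, adjusted p = 7.6e-05). Of its 50-base stretches, 14% are shared with the pseudogene Rab11b-ps2 and Gm17251. The close relative Rab11a had 19.4, 18.1, 22.2, 20.0 and 20.7 RPKM in knock-out libraries, against 19.6, 19.6, 19.1 and 20.3 RPKM in wild-type libraries, with full overlap (0.028, 95% interval -0.11 to 0.16, adjusted p = 0.73).

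Rab8a, which delivers GLUT4 in cultured muscle cells, had 4.29, 4.43, 4.28, 3.97 and 3.97 RPKM in knock-out libraries, against 2.92, 2.91, 3.64 and 3.86 RPKM in wild-type libraries. The groups did not overlap but wt3 and wt4 were near the knock-out (0.33, SE 0.09, adjusted p = 0.011), and Rab8a was not called on centred values. Rab10, the corresponding Rab of fat cells and the most abundant member here, had 83.8, 83.3, 87.8, 92.2 and 90.1 RPKM in knock-out libraries, against 86.8, 89.6, 85.8 and 97.1 RPKM in wild-type libraries. These ranges overlapped nearly in full (-0.038, 95% interval -0.16 to 0.08, adjusted p = 0.58). Rab10 was called lower on centred values (-0.165, limma adjusted p = 0.034) and with quantile normalisation (-0.26). Rab14 differed by -0.0048 and Rab35 by 0.14 (adjusted p = 0.95 and 0.055). Rab8b stood at 2.21 ± 0.515 RPKM in the knock-out and 1.69 ± 0.172 RPKM in the wild type (0.35, adjusted p = 0.064).

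**Figure D3:**
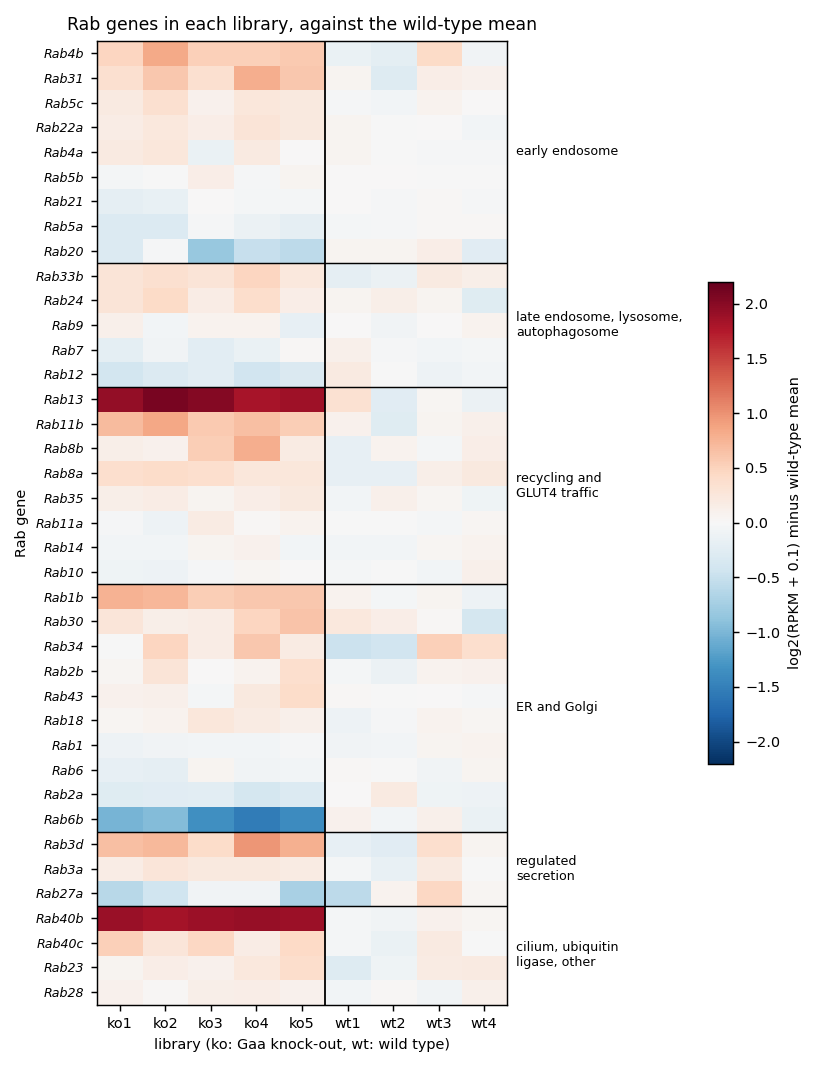
Each tested Rab gene in each library, as log2(RPKM + 0.1) minus the wild-type mean, with knock-out libraries ko1 to ko5 left of wild-type libraries wt1 to wt4 and genes grouped by role. Rab13, Rab40b and Rab6b are the strongly coloured rows, and Rab4b, Rab11b and Rab1b are red in all 5 knock-out libraries.

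Among Rabs of the endoplasmic reticulum and Golgi, which handle newly made proteins, 14 were in the table and 10 were tested, of which 1 was higher, 2 were lower and 7 not called. On centred values 1 was higher and 4 lower. The summed level was 206 ± 2.86 RPKM in the knock-out (n = 5) and 194 ± 4.30 RPKM in the wild type (n = 4). Rab1b, which drives transport from the endoplasmic reticulum to the Golgi, had 70.6, 68.8, 60.5, 62.7 and 62.9 RPKM in knock-out libraries, against 44.1, 40.2, 43.5 and 38.7 RPKM in wild-type libraries. No library of one genotype came near the other (0.64, 1.56-fold, SE 0.06, adjusted p = 7.2e-06). Its relative Rab1, the gene now named Rab1a, averaged 25.2 ± 0.603 RPKM in the knock-out and 26.5 ± 1.33 RPKM in the wild type (-0.069, adjusted p = 0.26). On centred values Rab1 was called lower (-0.20).

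Rab2a, which acts between Golgi and endoplasmic reticulum and in the fusion of autophagosomes with lysosomes, had 53.5, 54.0, 54.7, 49.2 and 52.0 RPKM in knock-out libraries, against 64.7, 73.9, 60.4 and 59.4 RPKM in wild-type libraries. All knock-out libraries were below all wild-type libraries (-0.29, 1.22-fold lower, SE 0.07, adjusted p = 0.0037). Rab6b fell as given above, while Rab6, its widely expressed relative of Golgi traffic, averaged 21.6 ± 1.62 RPKM in the knock-out and 23.0 ± 0.979 RPKM in the wild type (-0.093, adjusted p = 0.23). On centred values Rab6 was called lower (-0.22). On the opposite strand, Mrpl48 overlaps 22.0% of the Rab6 exon bases and was higher in the knock-out (22.0 against 18.4 RPKM, 0.26, adjusted p = 0.0010). Rab18, of lipid droplets and the endoplasmic reticulum, stood at 34.9 ± 2.03 RPKM in the knock-out and 31.8 ± 1.78 RPKM in the wild type (0.13, adjusted p = 0.083). Rab34, Rab30, Rab43 and Rab2b differed by 0.28, 0.33, 0.15 and 0.16 and did not pass the threshold. In the annotation 90.4% of the Rab43 exon bases are also covered by the same-strand locus Gm45140. Rab30 was called higher without wt1 and wt2 (0.51, adjusted p = 0.030) and with array weights (0.44, adjusted p = 0.028). For Rab34 the wild-type libraries split, with 0.838 and 0.871 RPKM in wt1 and wt2 and 1.76 and 1.58 RPKM in wt3 and wt4. Its change was 0.72 without wt3 and wt4 (adjusted p = 0.0043) and -0.17 without wt1 and wt2 (adjusted p = 0.44). Such a split was not particular to it: wt1 and wt2 both lay below wt3 and wt4 in 17 of the 39 Rab genes (43.6%) and in 39.6% of all tested genes. They both lay above wt3 and wt4 in 7 of the 39 (17.9%) and in 16.1% of all tested genes.

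Rabs of regulated secretion were mostly scarce, with 3 of 7 tested, of which 2 were higher and 1 was not called. On centred values 1 was called, in the same direction. Rab3d, of secretory granules in exocrine and mast cells, had 1.34, 1.38, 1.09, 1.67 and 1.45 RPKM in knock-out libraries, against 0.70, 0.662, 1.07 and 0.846 RPKM in wild-type libraries. The groups were separate only by the small gap between ko3 and wt3 (0.70, 1.63-fold, SE 0.15, adjusted p = 0.0022). Rab3a, the synaptic vesicle form, was higher by 0.21 with overlap (12.3 ± 0.360 RPKM in the knock-out and 10.7 ± 1.10 RPKM in the wild type, adjusted p = 0.023), and the call was lost without wt1 or wt2 (adjusted p = 0.058 and 0.078). Rab27a, of lysosome-related granules and exosome release, had 0.353 to 0.607 RPKM in knock-out and 0.397 to 0.916 RPKM in wild-type libraries (-0.38, adjusted p = 0.17). It passed the filter through its wild-type values and was called lower without wt1 (-0.57, adjusted p = 0.036).

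Of 5 members that act at the cilium, as ubiquitin ligase adaptors or are less studied, 4 were tested, 2 were higher and 2 not called, and on centred values 1 was called. Rab40b was higher on both scales. Rab40c, a second member with a SOCS box, had 3.06, 2.55, 2.92, 2.38 and 2.87 RPKM in knock-out libraries, against 2.03, 1.89, 2.42 and 2.10 RPKM in wild-type libraries. The groups met between ko4 and wt3 (0.37, SE 0.10, adjusted p = 0.0076). Rab40c was called under 1 of the 5 scalings, with a change of 0.15 to 0.24 under the others. Its call was also lost without wt1 and wt2 together. Rab23, a ciliary regulator of Hedgehog signalling, and Rab28, of cilia and photoreceptors, differed by 0.18 and 0.10 and were not called.

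The 16 members below the filter were not part of the count above. Their means ran up to 0.461 RPKM for Rab15, next to 0.562 RPKM for Rab27a, the lowest tested. Rab32 and Rab38, of melanosomes and other lysosome-related organelles, were both among them. Rab32 had 0.195, 0.378, 0.165, 0.477 and 0.375 RPKM in knock-out libraries, against 0.274, 0.257, 0.271 and 0.316 RPKM in wild-type libraries, so the knock-out values straddled the wild-type ones. All knock-out libraries lay above all wild-type libraries for 3 of the 16 and below them for none, against 7.23% and 3.34% of the 7029 genes of the table below the filter. Rab44, a large Rab studied in immune cells, had 0.315, 0.237, 0.302, 0.362 and 0.218 RPKM in knock-out libraries, against 0.0261, 0.0321, 0.0490 and 0.0664 RPKM in wild-type libraries (about 4.0 to 55.8 reads). Rab27b, of secretory vesicles, had 0.254, 0.291, 0.368, 0.437 and 0.268 RPKM in knock-out libraries, against 0.0999, 0.0726, 0.119 and 0.101 RPKM in wild-type libraries. Both were high in all knock-out libraries at a very low level. Rab17, of epithelial cells, was at 0.0395 to 0.218 RPKM in knock-out libraries and listed at 0 in 3 of the 4 wild-type libraries, on at most 12 reads. When the filter was dropped these 3 were called higher (adjusted p = 7.0e-05, 4.2e-04 and 0.0048), as were 9.32% of the genes below the filter and 24.7% of all genes. The summed macrophage markers were higher in the same libraries, and their part in these values was not tested.

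Many Rabs come as 2 or more close relatives, and the ratio of relatives within a library is not changed by centring, that is, by 1 factor per library. Ratios were compared for 11 pairs by exact two-sided permutation over the 9 libraries, with Benjamini-Hochberg adjustment over the pairs. This test was chosen after the data were seen. In 8 of the 11 pairs the genotypes did not overlap, and 9 had an adjusted p below 0.05. How often ratios of other gene pairs part the genotypes was not computed; of the tested genes taken singly, 51.8% were called, so these counts do not set the Rab pairs apart from other genes. Rab1b made up 72.0% ± 1.71 of the sum of Rab1b and Rab1 in knock-out muscle (SD, n = 5) and 61.1% ± 2.23 in wild-type muscle (SD, n = 4), a log2 ratio higher by 0.71 (SE 0.09, exact permutation p = 0.0079, adjusted p = 0.022). Rab11b made up 39.3% ± 3.76 of Rab11b and Rab11a in knock-out and 29.3% ± 2.43 in wild-type muscle (0.64, exact permutation p = 0.0079, adjusted p = 0.022). In both pairs the second member did not pass the threshold in the gene-wise test on the deposited scale.

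The Rab5 set shifted away from Rab5a. Rab5c took 51.6% ± 3.30 of Rab5c and Rab5a in knock-out and 44.5% ± 0.649 in wild-type muscle (0.41, exact permutation p = 0.016, adjusted p = 0.022), and Rab5b took 69.5% ± 1.15 of Rab5b and Rab5a in knock-out and 66.2% ± 0.644 in wild-type muscle (0.22, the same p). Rab5c against Rab5b did not pass (0.19, exact permutation p = 0.063, adjusted p = 0.070). Rab3d rose relative to Rab3a by 0.50 and Rab2b relative to Rab2a by 0.45 (exact permutation p = 0.016, adjusted p = 0.022 for each). Tox4 and Gm43766 overlap 77.6% of the Rab2b exon bases, so the Rab2b ratio is uncertain.

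Rab6b was 3.04% ± 0.775 of Rab6b and Rab6 in knock-out and 6.96% ± 0.778 in wild-type muscle (-1.16, SE 0.17, exact permutation p = 0.0079, adjusted p = 0.022), a ratio made uncertain by the overlap of Rab6 with Mrpl48. Rab40c was 8.83% ± 0.847 of Rab40c and Rab40b in knock-out and 21.6% ± 0.905 in wild-type muscle (-1.52, SE 0.08, exact permutation p = 0.0079, adjusted p = 0.022). Both were called higher on the deposited scale, but Rab40c under 1 of the 5 scalings only. Rab4b against Rab4a overlapped between genotypes (0.48, exact permutation p = 0.032, adjusted p = 0.039) and was lost when any library but wt3 was left out. Rab8b and Rab8a kept similar proportions with wide error (34.3% ± 5.70 Rab8b in knock-out and 33.8% ± 2.91 in wild-type muscle, difference 0.018, SE 0.18, exact permutation p = 0.94). Ratios can still move with length and GC content. With the GC trend removed the Rab1b to Rab1 difference was 0.45 (adjusted p = 0.017), that of Rab5c to Rab5a 0.22 (0.029), that of Rab5b to Rab5a 0.12 (0.044) and that of Rab4b to Rab4a 0.42 (0.058), each p from the exact permutation.

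**Figure D4:**
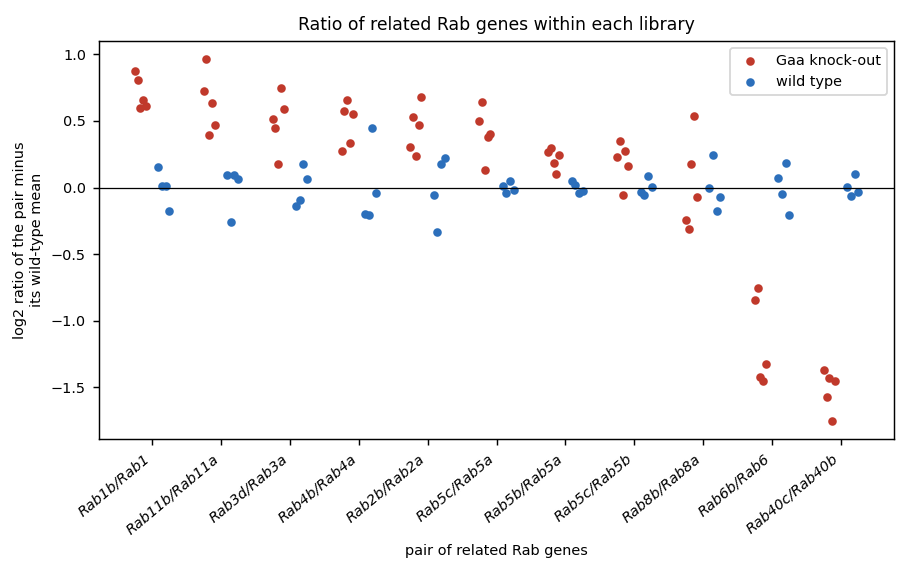
Log2 ratio of 2 related Rab genes in each library, minus the wild-type mean of that ratio, for 11 pairs, knock-out points left and wild-type points right. Knock-out points lie above wild-type points for Rab1b/Rab1 and Rab11b/Rab11a and below them for Rab6b/Rab6 and Rab40c/Rab40b, and Rab8b/Rab8a overlap.

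A list of 8 genes held the enzymes that prenylate Rabs, their escort proteins, the inhibitors that extract Rabs from membranes, Rabif and Rabac1. Of these 7 were tested, and 5 were higher (71.4%, background 37%) and 1 lower (14.3%, background 14.8%). The counts were the same on centred values (background 25.1% higher and 25% lower). The list had a median log2 fold change of 0.47 and a summed level of 205 to 252 RPKM in knock-out and 141 to 161 RPKM in wild-type libraries. Rabac1 held the largest part of that sum, with a mean of 127 RPKM in the knock-out and 76.5 RPKM in the wild type. Rabif and Rabac1 were both among the 5 called higher on the deposited scale. Gdi2, a GDP dissociation inhibitor, averaged 33.5 ± 2.91 RPKM in the knock-out (n = 5) and 22.9 ± 0.344 RPKM in the wild type (n = 4), higher by 0.54 (adjusted p = 3.3e-05). Rabggtb, the catalytic subunit of Rab geranylgeranyl transferase, averaged 35.6 ± 2.39 RPKM in the knock-out and 25.6 ± 0.330 RPKM in the wild type (0.47, adjusted p = 3.1e-05). Chm, the escort protein that presents Rabs to this enzyme, fell to 4.07 ± 0.508 RPKM in the knock-out, against 5.32 ± 0.268 RPKM in the wild type (-0.39, adjusted p = 0.0043).

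On the deposited scale the shares of GAP, GEF and effector genes called were near the background of 37% higher and 14.8% lower. The background on centred values was 25.1% higher and 25% lower. Of 34 tested GAP genes 14 were higher (41.2%) and 4 lower (11.8%), and on centred values 13 and 8, with a median of 0.10. Tbc1d10c stood at 2.79 RPKM in the knock-out and 1.42 RPKM in the wild type (0.95, adjusted p = 5.0e-05). Tbc1d22a stood at 6.34 RPKM in the knock-out and 3.89 RPKM in the wild type (0.69, adjusted p = 9.4e-06), and Rab3gap2, a subunit of the Rab3 GAP, was higher by 0.48. Evi5l, Tbc1d8b and Tbc1d16 were lower by -0.52, -0.50 and -0.45. Of 35 tested GEF genes 10 were higher (28.6%) and 5 lower (14.3%), and on centred values 9 and 10, with a median of 0.10. Dennd2c rose to 2.15 RPKM in the knock-out against 0.880 RPKM in the wild type (1.2, adjusted p = 3.5e-06), with Dennd5b and the TRAPP subunit Trappc1 higher by 0.77 and 0.45. Rabgef1, an exchange factor for Rab5, fell to 21.6 RPKM in the knock-out against 29.4 RPKM in the wild type (-0.44, adjusted p = 3.1e-05). Dennd4b and Trappc8 were lower too (-0.69 and -0.43).

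Of 44 tested effector genes 17 were higher (38.6%, background 37%) and 8 lower (18.2%, background 14.8%), with a median of 0.09. On centred values 9 were higher and 11 lower (background 25.1% and 25%). Myo5a, the motor myosin Va, averaged 4.18 ± 0.337 RPKM in the knock-out (n = 5) and 1.31 ± 0.211 RPKM in the wild type (n = 4), a rise of 1.61 (adjusted p = 2.6e-07). Rab11fip5, of the Rab11 effector family, averaged 10.8 ± 1.31 RPKM in the knock-out and 4.31 ± 0.483 RPKM in the wild type (1.31, adjusted p = 9.4e-07). The members of that family did not move as one: Rab11fip3 fell to 10.4 RPKM in the knock-out against 15.7 RPKM in the wild type (-0.59, adjusted p = 3.9e-05) and Rab11fip2 to 1.92 RPKM against 2.70 RPKM (-0.47, adjusted p = 0.0036). Mical1, an actin-oxidising enzyme bound by Rab proteins, was higher by 0.81, and Myo5c lower by -0.36. The Rab kinases Lrrk1 and Lrrk2 were both higher at low levels, 0.854 and 1.02 RPKM in the knock-out and 0.581 and 0.753 RPKM in the wild type (0.52 and 0.39, adjusted p = 0.022 and 0.0076), and 1 of the 2 remained so on centred values.

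**Figure D5:**
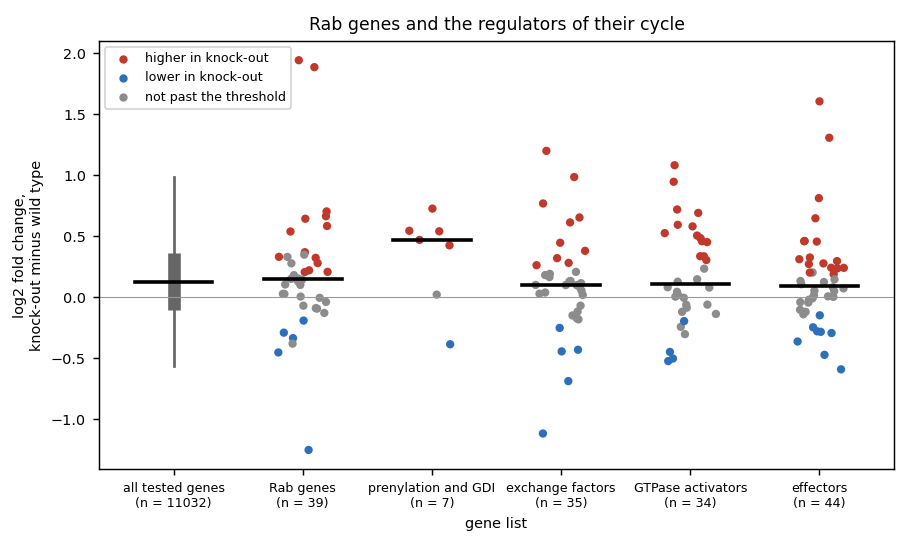
Log2 fold change, knock-out minus wild type, of each tested gene among the Rab genes and the lists of Rab regulators, with horizontal bars at the median. The box and line of all 11032 tested genes show the central 50% and 90% of genes. The plotted medians are 0.15 for the Rab genes, 0.47 for prenylation and GDI, 0.10 for the exchange factors, 0.10 for the GTPase activators and 0.09 for the effectors, beside 0.12 for all genes. The list of Rab kinases and a phosphatase, with 2 tested genes, is not plotted.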

How the data were processed

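RNA was extracted with Trizol and libraries were made from 1 ug of total RNA with a TruSeq kit, per the labels' protocols. The authors deposited 1 table of RPKM values (reads scaled for transcript length and library depth), with 23665 transcript lines and 9 library columns, all used. The submitters' processing notes name TopHat 1.3.2, Bowtie 0.12.7.0, Partek 6.6 and the build mm9. What each tool did, how strand was handled and any filter: not given in the sources used here.

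RPKM was summed per symbol (63 lines for 55 Rab genes, 8 with several lines). Genes averaging 0.5 RPKM or more were tested on log2(RPKM + 0.1), a scale that understates changes of low genes, with limma 3.58.1 in R 4.3.3 (two-sided, lmFit and trended eBayes) between the 5 knock-out and 4 wild-type libraries, adjusted by Benjamini-Hochberg over 11032 genes and a threshold of 0.05. No count test was used, since RPKM are not counts. Gaa and ratios of paralogs had exact permutation tests over 126 splits. The fit was tested on simulated data. Read numbers were estimated from steps in low values: of values of at most 5 reads, 71.7% to 75.3% came within 0.1 of a whole number, too few to recover reads for a count test. Transcript length, GC content, shared 50-base stretches and exon overlap came from GENCODE M21 on GRCm38, a build other than mm9, so no expression coordinate is given; 98.6% of tested genes had a length. Promoter sequences are from RefSeq, GRCm38.p6, matched by symbol for 45 of 55 Rab genes. Each motif was searched on both strands. Python 3.11.15, pandas 2.3.3, numpy 2.4.6, scipy 1.17.1 and matplotlib 3.10.9 were used. On 37 lines the symbol had become a date, none of them a Rab gene.

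The members, the role and regulator lists and the marker lists were chosen with earlier results of these data known. Values in every library are given for Rab genes past the threshold with the 10 largest rises and falls, the 5 most abundant, and Rab7, Rab5a, Rab11a, Rab10, Rab13, Rab24 and Rab32. From each regulator list, up to 3 rises and 3 falls with the smallest adjusted p are named. Rabif and Rabac1 are named as well, to show what their list held. A gene that this rule selects is not reported here. Alternatives were other pseudocounts, filters, centring, quantile normalisation, the highest transcript per symbol, array weights and left-out libraries. Removing the length or GC trend (lowess, span 0.3) was added after the data were seen, as were the ratios of paralogs.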

Additional observations from a re-analysis of the deposited data

Results flagged for a closer look

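The value of Rab4b in the knock-out library ko2, 3.37 RPKM, stood apart from the other 4 knock-out libraries, of which the nearest was at 2.79 RPKM. The gap was 0.759 of the range of the group, above Dixon's critical value of 0.71 for 5 libraries. Of 80 groups screened in the same way 1 stood out, and chance alone marks about 1 in 20. Rab4b remained higher in the knock-out in all 9 fits that left out a library (0.51 to 0.73 on the log2 scale).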

How the results depend on the processing

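Rab genes called higher numbered 12 to 15, Rab genes called lower 3 to 5 and all genes called 5005 to 5554 when 1 library was left out. With libraries centred on their median 7 Rab genes were higher and 10 lower, with quantile normalisation 7 and 12, with the length trend removed 10 were lower, and with a filter at 2 RPKM 3 were lower because Rab20 and Rab6b were then not tested. Of all 11032 tested genes, 4081 were higher and 1632 lower as deposited, and 2769 and 2758 with centring. The numbers were 2644 and 3056 with quantile normalisation, and 2759 and 2651 with the length trend removed. Without wt1 and wt2 10 Rab genes were higher and 4 lower, beside 3159 and 1494 of all 11032 tested genes. The calls of Rab33b, Rab3a, Rab40c, Rab5c, Rab8a, Rab20 and Rab5a were then lost, and Rab30 and Rab27a were newly called. Without wt3 and wt4 15 Rab genes were higher and 4 lower, beside 4064 and 1321 of all tested genes. Rab24 and Rab5a then lost their calls, and Rab18 and Rab34 were newly called. Over all settings, 684 of 807 values of single Rab genes kept direction and side of the threshold, 49 lost the threshold, 34 gained it and 40 changed sign. For paralog ratios the numbers were 128, 9, 1 and 5 of 143. Rab34 moved most among the genes that changed sign, from -0.17 without wt1 and wt2 to 0.72 without wt3 and wt4 (adjusted p = 0.0043). On centred values Rab11a was -0.099, Rab28 -0.025, Rab4a -0.022, Rab5b -0.099 and Rab9 -0.12. With quantile normalisation Rab11a was -0.14, Rab18 -0.028, Rab28 -0.073, Rab4a -0.028, Rab5b -0.13 and Rab9 -0.13. With the length trend removed Rab11a was -0.12, Rab28 -0.11, Rab3a -0.015, Rab4a -0.12, Rab5b -0.083 and Rab9 -0.22 (adjusted p = 0.022). With the GC trend removed Rab35 was -0.044, Rab3a -0.0032, Rab43 -0.067, Rab4a -0.077, Rab5b -0.076 and Rab9 -0.062. Without wt1 and wt2 Rab23 was -0.0035 and Rab9 -0.031, and without wt3 and wt4 Rab14 was 0.055. With the highest transcript per symbol Rab43 was -0.11, with array weights Rab9 was -0.028, and with a pseudocount of 1 the Rab8b to Rab8a ratio was -0.021. Leaving out 1 library gave ranges of -0.0096 to 0.064 for Rab11a, -0.031 to 0.022 for Rab14, -0.0026 to 0.044 for Rab5b, -0.021 to 0.053 for Rab9 and -0.11 to 0.10 for the Rab8b to Rab8a ratio. The cause of these changes was not tested.

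No paired analysis was possible because the wild-type columns carry no replicate number of the labels. Depth limits the scarce members: tested Rab genes stood on about 26.8 to 19377.8 reads per library. The widest 95% interval of a gene that was not called reached 0.48 to either side. That interval is not adjusted for the number of genes tested, so it is not a limit of detection, and true differences may have been missed. A threshold missed does not show that levels were equal. The 2 wild-type ages could not be separated.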
